A study of Mus musculus with 17 samples.

Results

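The transcriptional answer of control bone marrow macrophages to RANKL was taken from 6 of the 17 RNA-seq libraries of the series. The members were chosen by their labels alone. They are Bap1flox BMM replicates 1 to 3, kept in M-CSF, and Bap1flox OC replicates 1 to 3, given M-CSF with RANKL at 100 ng/ml for 24 h. Bap1flox mice are Bap1 fl/fl littermates that carry no Cre, so the Bap1 gene is intact in all 6 libraries and Bap1 itself did not pass the test (log2 fold change -0.03, adjusted p 0.609). The OC libraries came from 20-week-old male mice and hold cells at the preosteoclast (preOC) stage. The age and sex behind the BMM libraries are not given in the sources used here. The study describes its preOC samples as biologically independent. Nothing in the sources used here says so of the BMM libraries, so p-values measure the spread between these libraries, which may in part be technical. The design asks which genes and programmes RANKL induces and represses while a macrophage turns towards an osteoclast.

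RANKL is the cytokine that commits macrophages to the osteoclast fate, and M-CSF keeps the precursors alive. RANKL binds RANK, which recruits TRAF adaptors and turns on both arms of NF-kB and the AP-1 factor c-Fos. These, together with calcium signals from immunoreceptors that carry ITAM motifs, raise NFATc1, the master factor of osteoclast genes, while repressors such as IRF8 are withdrawn. The resulting cells fuse, form actin rings and dissolve bone with acid, cathepsin K and metalloproteinases, work that draws heavily on mitochondria.

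The 6 libraries held 45752796 to 54195199 counts. The labelled cell types matched their markers. Expression was summed over 37 macrophage identity and scavenger genes, of which 33 were tested. The level was 46633, 42477 and 43885 CPM (counts scaled to a common library total) in BMMs and 14085, 12438 and 12586 CPM in preOCs. The osteoclast enzyme genes Acp5 and Ctsk were at 3.65 to 12.9 CPM in BMMs and at 721 to 2170.4 CPM in preOCs. Cd3e of T cells and Lum of fibroblasts had 0 counts in all 6 libraries, which allows up to 3 counts a library. The 12 markers of T and NK cells summed to 12.04, 9.83 and 12.9 CPM in BMMs and 4.503, 5.66 and 6.98 CPM in preOCs. Of these markers 10 lay below the filter on low counts, Cd4 fell (log2 fold change -1.57, from 10.8 to 3.64 CPM on average) and Trac rose (3.16, from 0.153 to 1.402 CPM). Markers of stromal cells and osteoblasts were present at a summed 1225, 5047 and 5614 CPM in BMMs and 2161, 3268 and 3481 CPM in preOCs, so that replicate 1 was the lowest of each group. Of the 18 stromal markers tested 1 (Dcn) rose and 0 fell, but without replicate 1 of both groups 12 of them fell, and 2 with replicates of equal number as a block. Summed neutrophil markers were at 325, 315 and 402 CPM and 122, 193 and 238 CPM, with 1 of 16 rising and 1 falling (10 falling without replicate 1, 12 with the block). B and plasma cell markers were at 138, 127 and 157 CPM and 16.1, 27.3 and 34.0 CPM, and erythroid and megakaryocyte markers, most of it Pf4, at 805, 532 and 508 CPM and 61.4, 50.3 and 46.4 CPM. Replicate 1 also stood apart along the second principal component, which held 10.8% of the variance, against 83.4% along the first, which separated BMMs from preOCs. The part of RNA from these other cells in the results below was not tested. Counts of calls are given with all 6 libraries and, where they differ by over 1.5 times, without replicate 1 of both groups, a choice made after the data were seen.

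Most of the measured transcriptome differed after a day of RANKL. Among 13412 genes tested with edgeR's quasi-likelihood test, 8663 (64.6%) passed, of which 4252 (31.7%) were higher and 4411 (32.9%) lower in preOCs at an adjusted p under 0.05, and 2805 (20.9%) and 2891 (21.6%) of them differed by at least 1.5-fold. A change of at least 4-fold was seen in 408 genes upward and 432 downward. At 16-fold the balance tilted, with 125 genes higher and 39 lower. The 3 preOC values lay wholly above the 3 BMM values for 35.2% of genes and wholly below for 36.3%. The plot of fold change against level sets the steep rises of Cyp2s1 and Car2 and the falls of Fcrls and Slco2b1 against the bulk of genes, which moved by less than 4-fold. In these bulk samples, fewer cells of a type and less RNA per cell cannot be told apart.

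**Figure D1:**
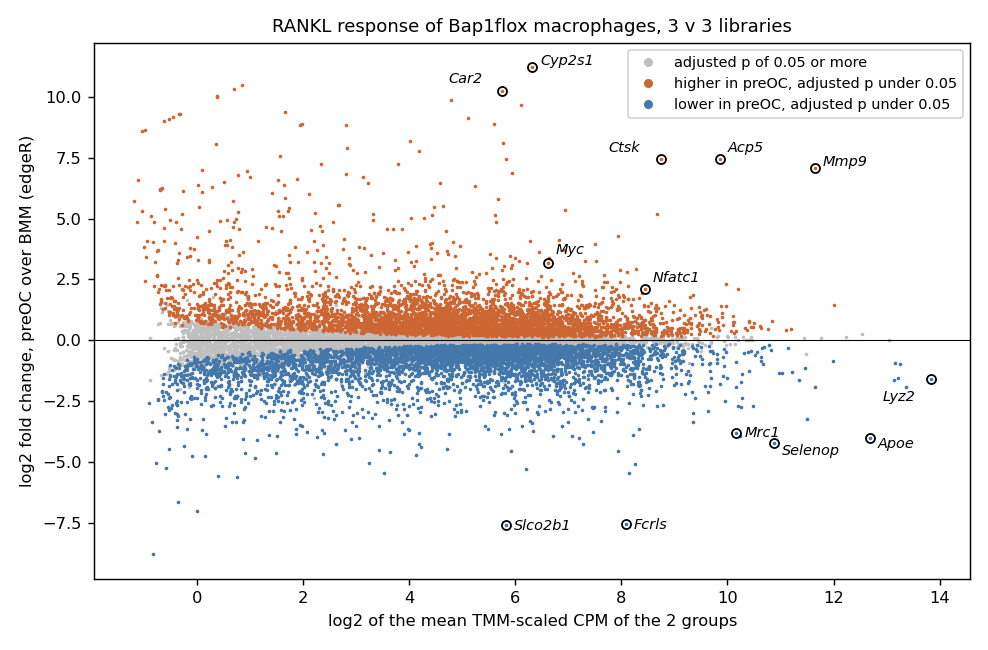
Log2 fold change of each of the 13412 genes (preOC over BMM, edgeR) against the log2 of its mean TMM-scaled CPM in the 2 groups. Orange and blue points passed an adjusted p of 0.05 and circled genes are described in the text. Cyp2s1 and Car2 reach log2 fold changes above 10, and Slco2b1 and Fcrls fall below -7.

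Among protein-coding genes of at least 5 CPM in preOCs, the 15 steepest rises joined osteoclast genes with genes of other known roles. Cyp2s1, a cytochrome P450, went from 0.119, 0.0465 and 0.0209 CPM in the BMM libraries to 128, 165 and 185 CPM in the preOC libraries (log2 fold change 11.23, SE 0.31, adjusted p 1.88e-06), a log2 fold change of 12.18 without BMM 1. Car2, carbonic anhydrase 2, which supplies the protons that dissolve bone mineral, went from 0.119, 0.0465 and 0.0837 to 79.4, 120.4 and 122.6 CPM (log2 fold change 10.26, SE 0.32). Both were near silent in every BMM library, and each preOC value was at least 666-fold above each BMM value. Rufy4, an autophagy adaptor gene, rose from 0, 0.0930 and 0.0837 to 40.6, 67.4 and 57.2 CPM. Mst1r, the receptor of macrophage-stimulating protein, rose from 0.0596, 0.232 and 0.0837 to 51.3, 82.7 and 72.2 CPM, and Scin, an actin-severing gelsolin relative, from 0.298, 0.139 and 0.167 to 87.6, 105 and 99.3 CPM. Steap4, a metalloreductase of iron and copper, went from 0.0397, 0 and 0.0418 to 8.404, 17.9 and 15.6 CPM, and Mt3, a metallothionein, from 0.0596, 0.209 and 0.230 to 31.6, 44.3 and 33.3 CPM. In each of these 5 genes every preOC library was at least 137-fold above every BMM library. Calcr, the calcitonin receptor, by which calcitonin stops resorption, had 1 count in all BMM libraries together and 1001 in the preOC libraries, a ratio of 909 with a 95% counting interval of 163 to 35942. Msln and Nyap2 each had 2 counts in BMMs against 1255 and 1204 in preOCs, ratios of 569.9 (95% counting interval 157 to 4711) and 547 (151 to 4519.5). In all, 24 genes, 23 of them protein-coding, went from under 0.5 CPM in every BMM library to over 5 CPM in every preOC library, and none made the opposite move at these limits. With a limit of 1 CPM in every preOC library, 14 genes that were over 5 CPM in every BMM library did, Slco2b1, Slit1, Hpgd and Gpr34 among them.

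The steepest falls, by the same rule, included many genes of resident and scavenging macrophages. Slco2b1, an organic anion carrier, went from 95.6, 114 and 131 CPM in BMMs to 0.519, 0.662 and 0.584 CPM in preOCs (log2 fold change -7.58, SE 0.18, adjusted p 1.66e-06). Fcrls, an Fc receptor-like scavenger molecule known from tissue macrophages and microglia, went from 617, 452 and 557 to 2.43, 3.36 and 2.88 CPM (log2 fold change -7.55, SE 0.19). The 3 values of each group lay close together and each BMM value was at least 134-fold above each preOC value. F13a1, coagulation factor XIII A, fell from 608, 489.7 and 572 to 3.78, 15.1 and 19.1 CPM, and Cd5l, a secreted scavenger protein, from 579, 616 and 595 to 31.7, 9.18 and 12.5 CPM. PreOC 1 was the lowest library for F13a1 and the highest for Cd5l. Cd163, the haemoglobin-haptoglobin receptor, fell from 39.6, 31.0 and 30.6 to 1.29, 1.396 and 1.15 CPM, Hpgd, which inactivates prostaglandins, from 24.0, 12.8 and 18.3 to 0.498, 0.501 and 0.681 CPM, and Ednrb, an endothelin receptor, from 262, 538 and 609.9 to 12.4, 22.9 and 24.7 CPM. The remaining genes of the 15 largest falls (Slit1, Ms4a4a, Gpr34, Lama3, Ctla2b, Tpbgl, Cbr2 and Ggt5) had log2 fold changes between -5.47 and -4.41. Ctla2b has a close copy in Ctla2a, between which reads may be split.

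Changes in the sheer amount of message had another make-up. The 10 genes with the largest drop in CPM took 11.3%, 11.7% and 12.2% of the scaled counts in BMMs and 3.89%, 3.52% and 3.59% in preOCs, and comprised Lyz2 (lysozyme), Ctsb, Ctsd and Psap (lysosomal proteins), Apoe (the lipoprotein made by lipid-laden macrophages), the ferritin subunits Fth1 and Ftl1, Stab1 (a scavenger receptor), Itm2b and Selenop (a selenium carrier). Lyz2 fell from 23509, 20742 and 21248 to 8173, 6873 and 6726 CPM (log2 fold change -1.59, SE 0.10). The call was lost with all 11 libraries of replicates 1 to 3 in 1 fit, at a log2 fold change of -1.58 (adjusted p 0.509). That fit adds Bap1LysM libraries, which carry Cre in this gene and held 13.62 to 8722 CPM of it as deposited. Apoe fell from 10653, 12608 and 13967 to 557, 856 and 886 CPM (log2 fold change -4.02, SE 0.21), and Selenop from 3771, 3178 and 3812 to 168, 197 and 217 CPM. Every BMM library was at least 2.54-fold above every preOC library in these 3 genes. The 10 genes with the largest gain took 0.536%, 0.565% and 0.534% and 2.12%, 2.59% and 2.66%, and comprised the osteoclast genes Mmp9, Acp5 and Ctsk, the factor gene Jdp2, the structural genes Vim and Lmna (vimentin and lamin A/C), the semaphorin co-receptor gene Nrp2, Pabpc1 of translation, and the energy genes Ckb and Atp5b. Vim rose from 2169, 2315 and 2119 to 6544, 5845 and 5576 CPM and Nrp2 from 478, 432 and 417 to 1645, 1931 and 2194 CPM.

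RANKL signals through AP-1 and NFATc1, and the stretches just upstream of the steepest movers are therefore given. The 250 bases before the annotated start were read from the RefSeq promoter table (GRCm38.p6) for genes with a single entry and chosen after their values and matches were known. In them TGANTCA (the AP-1 site) and GGAAAA (the NFAT core) were searched on both strands, besides CACGTG (the E-box that MITF can bind), and matches are in capitals (TTTTCC where the NFAT core lies on the opposite strand).
Cyp2s1, chr7:25816526-25816775, minus strand: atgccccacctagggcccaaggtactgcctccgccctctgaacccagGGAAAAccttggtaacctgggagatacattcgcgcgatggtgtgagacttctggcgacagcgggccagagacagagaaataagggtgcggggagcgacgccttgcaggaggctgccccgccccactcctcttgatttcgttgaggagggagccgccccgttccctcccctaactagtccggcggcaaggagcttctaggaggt
Rufy4, chr1:74125291-74125540, plus strand: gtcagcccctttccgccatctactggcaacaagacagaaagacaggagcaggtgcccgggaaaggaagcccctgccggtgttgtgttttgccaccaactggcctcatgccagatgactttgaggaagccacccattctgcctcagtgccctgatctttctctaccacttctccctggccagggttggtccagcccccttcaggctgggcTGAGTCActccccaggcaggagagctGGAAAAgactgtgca
Oscar, chr7:3616158-3616407, minus strand: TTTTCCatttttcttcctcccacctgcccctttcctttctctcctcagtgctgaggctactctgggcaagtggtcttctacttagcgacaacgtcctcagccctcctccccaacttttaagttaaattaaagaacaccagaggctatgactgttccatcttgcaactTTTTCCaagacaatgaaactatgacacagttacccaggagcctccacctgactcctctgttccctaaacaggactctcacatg
Ctsk, chr3:95498960-95499209, plus strand: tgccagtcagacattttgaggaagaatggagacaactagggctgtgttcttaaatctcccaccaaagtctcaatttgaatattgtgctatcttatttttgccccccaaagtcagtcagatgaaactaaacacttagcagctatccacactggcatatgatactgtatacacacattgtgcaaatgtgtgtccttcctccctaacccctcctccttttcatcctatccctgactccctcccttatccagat
Fcrls, chr3:87263525-87263774, minus strand: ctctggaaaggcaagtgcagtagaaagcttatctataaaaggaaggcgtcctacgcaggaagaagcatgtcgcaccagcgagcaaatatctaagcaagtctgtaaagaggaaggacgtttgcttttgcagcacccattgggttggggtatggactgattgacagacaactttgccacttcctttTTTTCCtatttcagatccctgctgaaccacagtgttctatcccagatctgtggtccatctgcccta
Cd163, chr6:124304401-124304650, plus strand: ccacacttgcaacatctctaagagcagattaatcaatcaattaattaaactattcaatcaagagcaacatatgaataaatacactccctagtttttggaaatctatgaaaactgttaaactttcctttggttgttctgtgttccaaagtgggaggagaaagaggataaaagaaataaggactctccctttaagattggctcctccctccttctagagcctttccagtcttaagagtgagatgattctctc
Rufy4 alone of these 6 held the AP-1 letters, and the NFAT core was found in Rufy4, Cyp2s1, Oscar and Fcrls. No searched motif stood in the windows of Ctsk and Cd163. Among all 18 windows with a single entry, of Ctsk and of genes among the 15 largest changes each way, 2 held TGANTCA, those of Rufy4, which rose, and Ctla2b, which fell, and 8 held GGAAAA. Of all 32851 promoters in the table, 6.75% held TGANTCA and 20.4% GGAAAA in the same 250 bases, and of the 12439 promoters of tested genes 4.64% and 18.4%. Among promoters of genes that rose at least 16-fold the shares were 12.1% and 21.2% (132 promoters of 92 genes), and among those that fell as far 5.41% and 35.1% (37 promoters of 26 genes). CACGTG was held by 6.02% of all promoters, 8.28% of those of tested genes, 1.52% of those that rose at least 16-fold and 8.11% of those that fell as far. The promoters of genes changed by at least 1.5-fold held TGANTCA in 5.99% of cases where the gene was higher and 5.4% where it was lower. These shares are descriptions, since several promoters can belong to 1 gene, and a match is not a bound site.

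The receptors at the top of the pathway moved in opposite directions. Of 25 tested genes of RANK, M-CSF receptor and ITAM signalling, 7 rose and 11 fell, against 31.7% and 32.9% of all genes. Tnfrsf11a, which encodes RANK, rose from 92.3, 91.7 and 85.1 to 213, 227 and 244 CPM (log2 fold change 1.35, SE 0.07, adjusted p 1.23e-05). Csf1r, the M-CSF receptor, fell from 4646, 3351 and 3842 to 1277, 1226 and 1341 CPM (log2 fold change -1.62, SE 0.12). The groups did not overlap in either gene, which held for 71.5% of all genes. The costimulatory receptors differed in direction. Oscar, the collagen-binding osteoclast receptor, rose from 0.0199, 0.139 and 0.167 to 24.6, 36.8 and 35.3 CPM, and Siglec15, which pairs with DAP12, from 0.159, 0.116 and 0.0837 to 10.7, 17.2 and 14.0 CPM. Trem2, the macrophage receptor that also pairs with DAP12, fell from 892, 987 and 975.1 to 334, 258 and 249 CPM, and Tyrobp, DAP12 itself, fell by less, from 726, 635 and 643 to 429, 397 and 411 CPM. Pira2, of the paired immunoglobulin-like receptors, a family with close copies between which reads may be split, rose too (log2 fold change 0.89, adjusted p 0.0325), a call that of the 6 fits with a library left out held only without BMM 1. Clec5a, a further DAP12 partner, rose (log2 fold change 1.84, SE 0.27), whereas Csf3r, the G-CSF receptor, fell (log2 fold change -3.40, SE 0.18). Among genes that relay the ITAM signal, the kinases Lyn and Tec, the adaptors Gab2 and Grb2, the exchange factor Vav3 and the ITAM chain Fcer1g fell, with log2 fold changes of -0.97, -0.95, -0.95, -0.26, -0.93 and -1.28, and the adaptor Lcp2 rose (0.55). Syk, Plcg2, Btk and Blnk did not pass, with log2 fold changes from -0.30 (Plcg2) to 0.18 (Blnk). Plcg2 and Blnk passed with the replicate block (adjusted p 0.0202 and 0.0419), and both, and Syk, without replicate 1 of both groups. The median of the list, -0.257, turned positive without BMM 1 (0.068) and with preOC replicates 4 to 6 added (0.139).

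NF-kB genes rose more often than they fell. Of 22 tested, 13 rose and 4 fell, beside 31.7% and 32.9% of all genes, with a median log2 fold change of 0.579 against -0.046 over all genes. Traf1, an adaptor that NF-kB itself induces, rose from 6.79, 5.81 and 4.91 to 234, 229.5 and 252 CPM (log2 fold change 5.35, SE 0.13, adjusted p 1.66e-06). Nfkb2, the precursor of p52, rose from 131, 126 and 126 to 374, 408 and 403 CPM and Relb, its partner, from 63.3, 48.0 and 51.0 to 85.4, 98.6 and 105 CPM. Nfkb1, of the canonical arm, rose by only 0.33 (SE 0.07) on the log2 scale. All 4 had groups that did not overlap, as had 71.5% of all genes. The inhibitors Nfkbia (106 to 386 CPM on average), Tnfaip3 (21.1 to 81.1 CPM) and Nfkbie (34.5 to 89.7 CPM) rose together with Birc3, Traf3 and Tnip1, whose log2 fold changes were 1.45, 1.34 and 1.32. Rela, Nfkbiz, Map3k14 and Ikbkb fell.

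Transcription factors known to drive osteoclasts rose in 14 of 27 tested cases and fell in 7, beside 31.7% and 32.9% of all genes, with a median log2 fold change of 0.309. Nfatc1 rose from 156, 114 and 123.1 to 456, 618 and 628 CPM (log2 fold change 2.11, SE 0.17, adjusted p 5.55e-05), or 4.33-fold. Fos, the c-Fos gene, rose from 77.3, 42.7 and 46.1 to 340.3, 355 and 359 CPM, and Fosl2, which encodes Fra-2, from 76.9, 64.5 and 67.8 to 364, 537 and 548 CPM. Each preOC value was at least 2.92-fold above each BMM value in these 3 genes. Jdp2, a Jun dimerization partner needed for osteoclast formation, had the largest log2 fold change of the list at 5.20 (SE 0.22), from 17.3, 22.9 and 24.7 to 616, 859 and 916 CPM. Prdm1, the Blimp1 repressor that silences anti-osteoclast genes, rose from 24.9, 13.2 and 17.3 to 73.9, 111 and 116 CPM, and Dnmt3a, a DNA methyltransferase with a like role, by 1.76 (SE 0.14) on the log2 scale. Mitf, the partner of NFATc1 on lysosomal and resorption genes, rose by 0.31 (SE 0.07). Batf and Batf3 fell, as did Tfeb, Tfe3 and Nfatc2.

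Repressors of the osteoclast fate were lower, with exceptions. Of 17 tested, 10 fell and 3 rose, beside 32.9% and 31.7% of all genes, with a median log2 fold change of -0.441. Maf, a macrophage identity factor, fell from 1375, 1392 and 1425 to 183, 190.0 and 179 CPM (log2 fold change -2.93, SE 0.06, adjusted p 1.66e-06). Irf8 fell from 267, 260.4 and 285 to 60.8, 63.1 and 64.2 CPM. The BMM level of both genes was at least 4.06-fold above the preOC level in every library. Arid5a fell by 1.97 on the log2 scale. Bcl6, a target of Blimp1, was lower by a smaller amount, -0.33 (SE 0.11, adjusted p 0.0288), and its call was lost in 5 of 6 fits that left a library out, without a filter on low counts, with all 11 libraries of replicates 1 to 3 in 1 fit and with preOC replicates 4 to 6 added. Bach2, Zeb1 and Egr2 were the 3 that rose, Bach2 and Zeb1 with log2 fold changes of 1.46 and 1.45.

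Among resorption genes the enzyme genes Acp5, Ctsk and Mmp9 rose 135- to 176-fold from low levels, and the acid pump and channel genes Tcirg1 and Clcn7 rose 1.69-fold and 1.49-fold from high levels. Of 23 tested genes of resorption and acid secretion, 13 rose and 5 fell, beside 31.7% and 32.9% of all genes. Acp5, tartrate-resistant acid phosphatase, the histochemical mark of osteoclasts, rose from 6.61, 12.9 and 12.05 to 1257, 2120.2 and 2170.4 CPM (log2 fold change 7.46, SE 0.38, adjusted p 1.09e-05). Ctsk, cathepsin K, the collagenase of bone, rose from 3.65, 4.86 and 6.25 to 721, 949 and 905 CPM (log2 fold change 7.45, SE 0.24, adjusted p 2.81e-06). Mmp9, gelatinase B, rose from 9.63, 54.5 and 76.5 to 3787, 7285 and 7955 CPM (log2 fold change 7.08, SE 0.85, adjusted p 0.000339). Replicate 1 was the lowest library of each group in all 3 genes, and by far the lowest BMM for Mmp9. The low BMM 1 pulls down the BMM mean of Mmp9 and so enlarges its log2 fold change. Without BMM 3, the highest BMM for this gene, the log2 fold change was 7.67. Slc9b2, a sodium-proton exchanger of osteoclasts, rose from 1.27, 1.14 and 0.669 to 102, 139 and 126 CPM. Rab38, a small GTPase of lysosome-related organelles, and Mmp14, a membrane metalloproteinase, rose by 3.43 and 2.18 on the log2 scale. Tcirg1, the a3 subunit of the proton pump, was already at 809.9, 838 and 859.8 CPM in BMMs and reached 1131, 1553 and 1540.4 CPM, and Clcn7, the chloride channel beside it, went from 325, 308 and 319 to 412, 488 and 515 CPM. Ostm1, the partner of Clcn7, did not pass (log2 fold change -0.12, SE 0.06, adjusted p 0.127). Plekhm1, a vesicle regulator of the ruffled border, fell by 1.15. Per length, in the deposited RPKM, the preOC level was 1918 for Mmp9, 1227 for Acp5, 619 for Ctsk, 337 for Tcirg1, 95.2 for Clcn7 and 64.2 for Car2. Acp5 lies at chr9:22126731-22135746, Ctsk at chr3:95499286-95509362, Mmp9 at chr2:164940780-164955850 and Car2 at chr3:14886426-14900769 (GRCm38, whole genes).

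**Figure D2:**
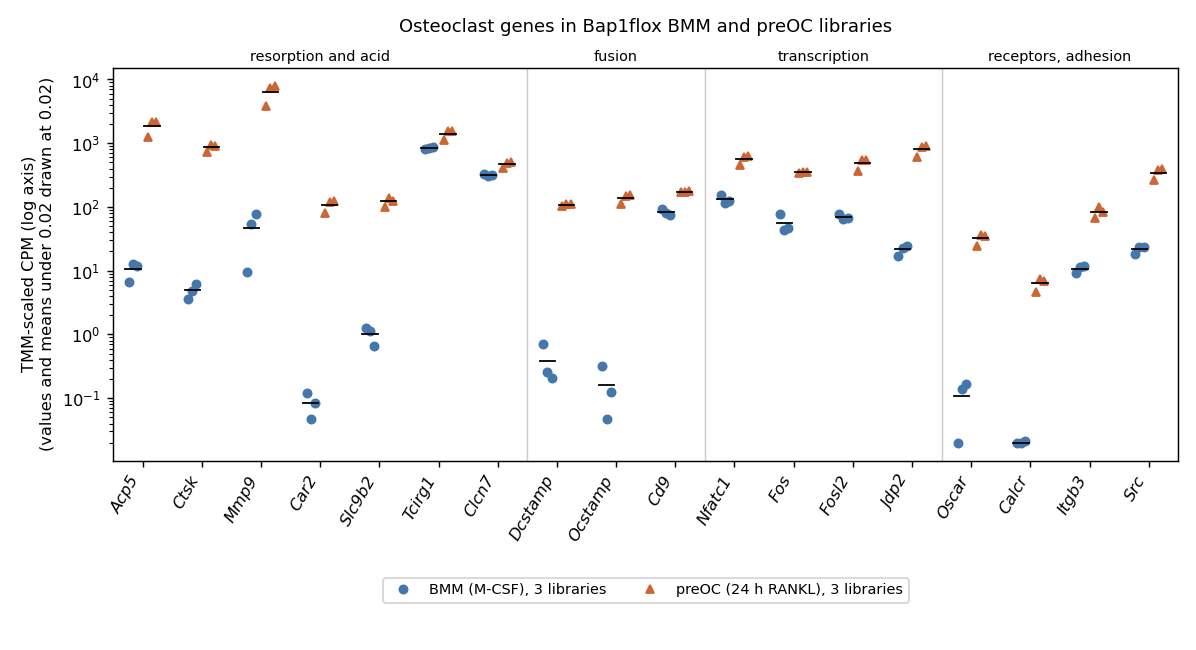
TMM-scaled CPM (log axis) of 18 osteoclast genes in each of the 3 Bap1flox BMM libraries (circles) and 3 preOC libraries (triangles), in order of replicate number, with a black bar at each mean. The groups overlap in none of the 18 genes, as in 71.5% of all genes tested. Car2, Dcstamp, Ocstamp, Oscar and Calcr start below 1 CPM in BMMs, while Tcirg1 and Clcn7 start above 300 CPM.

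Of 22 tested genes of cell fusion, 12 rose and 8 fell, beside 31.7% and 32.9% of all genes (median log2 fold change 0.48). Log2 fold changes ran from -1.95 (Cd81) to 9.65 (Ocstamp). Dcstamp, without which osteoclasts stay mononuclear, rose from 0.695, 0.256 and 0.209 to 105, 111 and 109.6 CPM (log2 fold change 8.10, SE 0.31, adjusted p 4.38e-06). Ocstamp, its relative, rose from 0.318, 0.0465 and 0.125 to 110.4, 150.4 and 154 CPM (log2 fold change 9.65, SE 0.36). The 3 preOC values of Dcstamp lay close together, and BMM 1 was the highest BMM library for both genes, without which the log2 fold changes were 8.91 and 10.63. Atp6v0d2, a proton pump subunit needed for fusion, rose from 62.0, 59.0 and 57.8 to 319.7, 524 and 482 CPM, Tm4sf19 from 1.93, 0.721 and 0.857 to 22.5, 31.2 and 30.2 CPM and Cd9, a tetraspanin, from 94.0, 80.6 and 74.9 to 174, 172 and 175 CPM. The surface glycoprotein gene Cd200, the filopodial motor gene Myo10 and the tetraspanin gene Tspan7 rose by 4.49, 2.45 and 2.32 on the log2 scale. Another tetraspanin, Cd81, fell from 430.3, 321 and 319 to 132, 75.3 and 69.9 CPM, and the engulfment genes Dock1 and Elmo1 and the ATP receptor gene P2rx7 were among the other falls.

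Of 15 integrin genes tested, 6 rose, 4 fell (7 without replicate 1 of both groups) and 5 did not pass, beside 31.7% and 32.9% of all genes, and the median was -0.132 (0.059 with preOC replicates 4 to 6 added). Itgb3, the beta3 subunit of the vitronectin receptor on which actin rings depend, rose from 9.10, 11.4 and 11.7 to 67.5, 101 and 83.0 CPM (log2 fold change 2.97, SE 0.18, adjusted p 1.79e-05). Its partner Itgav rose from 83.0, 76.4 and 84.1 to 321, 373 and 417 CPM. Itgb5, the beta5 subunit that pairs with alphav in macrophages, fell from 486, 413 and 414 to 141, 137 and 137 CPM (log2 fold change -1.66, SE 0.08). No value of 1 group reached into the other in these genes, which held for 71.5% of all genes. Itga2, a collagen receptor subunit, rose from 0.139, 0.139 and 0.146 to 2.97, 5.82 and 8.15 CPM, while Itga6 of the laminin receptor fell from 446, 378 and 393 to 90.2, 73.0 and 69.7 CPM. Among 35 podosome and actin ring genes, 11 rose and 9 fell, beside 31.7% and 32.9% of all genes, around a median of 0.018, which was negative under voom (-0.024) and without preOC 1 (-0.047). Src, the kinase without which osteoclasts form no ruffled border, rose from 18.5, 23.8 and 23.4 to 261, 377 and 392 CPM (log2 fold change 3.97, SE 0.19), and Dock5, a Rac activator of osteoclasts, from 43.9, 30.0 and 30.3 to 270.4, 354 and 373 CPM. Pxn, paxillin, rose by 0.46 on the log2 scale. Zyx (zyxin) and Vav3 fell by 1.55 and 0.93.

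Lysosomal hydrolases mostly fell and most genes of the proton pump rose. Of 46 tested lysosome and V-ATPase genes, 28 fell and 14 rose, beside 32.9% and 31.7% of all genes (median log2 fold change -0.453). The falls were mostly hydrolases and membrane proteins. Lamp1 fell from 3090.5, 2947 and 2974 to 1287, 1114 and 1190.2 CPM, Lgmn, legumain, from 2116, 2007 and 2103 to 399, 393 and 405 CPM and Man2b1, a mannosidase, from 1600.0, 1336 and 1414 to 423, 417 and 421 CPM. Of the 14 that rose, 12 encode the proton pump or its accessory protein, and 3 of the pump and accessory genes fell. Atp6v1b2 rose from 418, 465 and 463 to 941, 1227 and 1109 CPM and Atp6v1c1 from 155, 149.6 and 143 to 249, 277 and 261 CPM. Atp6v0a1, the a1 subunit for which a3 substitutes in osteoclasts, fell from 478, 517 and 525 to 151, 132 and 133 CPM (log2 fold change -1.87, SE 0.08). The others that fell were Atp6v0d1 and the accessory gene Atp6ap1, by less (log2 fold changes -0.20 and -0.15), calls that held only without preOC 1 among the 6 fits with a library left out, and that of Atp6ap1 was lost with the replicate block (adjusted p 0.0763). Of 24 calcium and NFAT genes 11 fell and 4 rose (median -0.29), a share called of 62.5% beside 64.6% of all genes. Rcan1, an NFAT target that restrains calcineurin, rose from 21.8, 23.7 and 22.4 to 64.7, 76.7 and 67.9 CPM, whereas Ppp3ca, the calcineurin catalytic subunit, fell by 0.76 (SE 0.08).

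The macrophage programme had the lowest median of the 35 lists with at least 13 tested genes. Of 33 identity and scavenger receptor genes tested, 25 fell and 3 rose (5 without replicate 1 of both groups), beside 32.9% and 31.7% of all genes. Their median log2 fold change was -2.11. Adgre1, which encodes F4/80, fell from 2201, 1620.4 and 1638 to 588, 422 and 419 CPM (log2 fold change -1.93, SE 0.18, adjusted p 0.000113). Mrc1, the mannose receptor, fell from 2316, 2013 and 2112 to 145, 156 and 163 CPM (log2 fold change -3.79, SE 0.09, adjusted p 1.66e-06), and Stab1 from 4769, 5395 and 5553 to 575, 551 and 529 CPM. Within each group the 3 values of Mrc1 and of Stab1 lay within 1.3-fold of each other, far less than the gap between groups. Mertk, the kinase that takes up dying cells, fell from 225, 204 and 208 to 18.1, 33.0 and 32.5 CPM, Cd36, the receptor of oxidised lipids, from 1245, 1334 and 1277 to 319, 292 and 281 CPM, and Ccr2, the monocyte chemokine receptor, from 196, 122 and 133 to 9.30, 11.2 and 13.6 CPM. Fcgr3, an IgG receptor, fell by 3.35 on the log2 scale. The 3 genes that rose were Cx3cr1, the fractalkine receptor, from 19.9, 21.3 and 18.4 to 56.0, 39.8 and 41.6 CPM, Msr1, scavenger receptor A, from 164, 147 and 127 to 304, 190.5 and 193 CPM, and Clec4a2. The call of Clec4a2 held without BMM 1 and without preOC 2 only, among fits with a library left out. For Msr1, with a log2 fold change of 0.65, the call was lost without BMM 2, without BMM 3 and with all 11 libraries of replicates 1 to 3 in 1 fit, where it was 0.58 to 0.68 (adjusted p 0.0511, 0.0648 and 0.125).

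**Figure D3:**
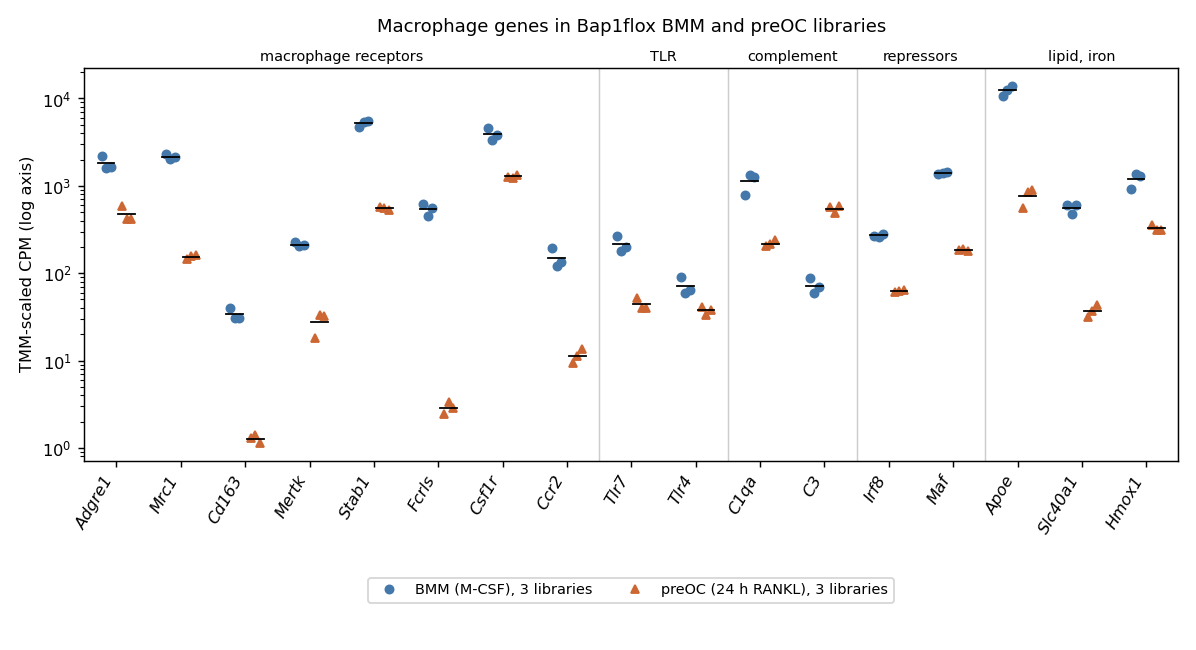
TMM-scaled CPM (log axis) of 17 macrophage genes in each of the 3 Bap1flox BMM libraries (circles) and 3 preOC libraries (triangles), with a black bar at each mean. All but C3 are lower in preOCs, and Fcrls, Cd163, Mrc1, Ccr2, Apoe and Slc40a1 fall by more than 10-fold.

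Microbial sensing fell with it. Of 22 Toll-like receptor genes and partners, 0 rose in the edgeR test (1 without replicate 1 of both groups) and 17 fell (median log2 fold change -1.055). The largest falls of the list were in Ly86, which encodes MD-1, a partner of a Toll-like receptor relative (log2 fold change -2.56), Tlr8, Tlr5 and Tlr7 (-2.52, -2.51 and -2.29). The endosomal receptors of nucleic acids fell, Tlr7 from 265, 181 and 200.3 to 52.5, 39.7 and 40.5 CPM, Tlr8 from 236, 165 and 172 to 32.6, 31.9 and 35.5 CPM and Tlr9 from 53.5, 31.5 and 39.4 to 13.1, 13.01 and 15.3 CPM. Tlr13 and Tlr3, also endosomal, had log2 fold changes of -1.41 and -0.68. Tlr5, for flagellin, fell from 11.8, 7.67 and 8.91 to 2.53, 1.36 and 1.11 CPM. Tlr4, for endotoxin, fell by less, from 90.5, 58.8 and 64.3 to 41.4, 33.5 and 37.5 CPM, together with its co-receptor Cd14 (171 to 83.9 CPM on average). Tlr2 did not pass (log2 fold change -0.35, adjusted p 0.276), with 2 of its preOC values below all BMM values, but passed once replicates of equal number were blocked (adjusted p 0.0228), under voom (0.0107) and without preOC 1 (0.0165). Of 16 complement genes, 11 fell and 3 rose, beside 32.9% and 31.7% of all genes. The subunits of C1q fell together, C1qa from 795, 1343 and 1256 to 203, 215 and 237 CPM, with log2 fold changes of -2.71 and -2.74 for C1qb and C1qc. C3, the central component, went the other way, from 87.9, 58.7 and 69.6 to 572, 493 and 585 CPM (log2 fold change 2.93, SE 0.16, adjusted p 1.31e-05).

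Antigen presentation genes moved little for the class II molecules themselves. H2-Aa and H2-Eb1 were lower by 0.34 and 0.34 on the log2 scale and H2-Ab1 did not pass (log2 fold change -0.23, adjusted p 0.0919). The call of H2-Aa held in 2 and that of H2-Eb1 in 5 of 6 fits that left a library out, and both were lost without a filter on low counts and in the fit of all 11 libraries of replicates 1 to 3. H2-Ab1 passed under voom and without preOC 1 (adjusted p 0.011 and 0.0429). Cd83 fell from 25.7, 15.6 and 18.7 to 1.51, 1.59 and 2.08 CPM and H2-DMa from 32.9, 28.6 and 29.2 to 13.6, 11.1 and 12.9 CPM, while Ifi30, a lysosomal thiol reductase, rose from 184, 255 and 241 to 400.3, 626 and 673 CPM. In the whole list 8 of 14 fell and 2 rose (4 without replicate 1 of both groups), beside 32.9% and 31.7% of all genes. Of 47 interferon-stimulated genes 14 rose and 20 fell (median -0.154), beside 31.7% and 32.9% of all genes. Isg15 rose from 23.7, 29.6 and 26.4 to 74.7, 59.2 and 65.1 CPM and Cxcl10 from 3.26, 3.44 and 2.74 to 41.6, 13.3 and 15.2 CPM, with preOC 1 the highest in both. The call of Isg15 was lost with preOC replicates 4 to 6 added (log2 fold change 0.61, adjusted p 0.455) and with all 11 libraries of replicates 1 to 3 in 1 fit (1.33, adjusted p 0.0501), against 1.32 in the main comparison. Ifit2 fell from 52.4, 60.4 and 60.8 to 25.8, 23.9 and 29.2 CPM and Iigp1 from 5.86, 8.86 and 8.03 to 1.91, 2.47 and 1.87 CPM, calls that were lost in the fit of 11 libraries at log2 fold changes of -1.12 and -1.85, against -1.14 and -1.86 (adjusted p 0.239 and 0.0582).

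Of 27 chemokine and receptor genes, 8 rose and 11 fell, beside 31.7% and 32.9% of all genes. Ccr1, a receptor on osteoclast precursors, rose from 46.5, 35.1 and 39.5 to 127, 141 and 141 CPM and its ligand Ccl9, a known RANKL target, from 554, 504 and 471 to 1203, 968 and 1004 CPM. Ccl22 rose from 0.0795, 0.209 and 0.167 to 1.58, 1.75 and 1.73 CPM. Another ligand of Ccr1, Ccl3, fell from 39.1, 52.3 and 56.4 to 19.3, 12.7 and 12.02 CPM. Pf4, platelet factor 4, which macrophages also make, fell from 788, 519.8 and 492 to 58.6, 44.7 and 41.2 CPM, and Ccl24 from 3.38, 2.74 and 4.68 to 0.0830, 0.143 and 0.195 CPM. Of 24 cytokine and mediator genes, 13 fell and 5 rose, beside 32.9% and 31.7% of all genes (median -0.86). Il1rn, the interleukin-1 receptor antagonist, rose from 6.00, 12.2 and 15.7 to 123.1, 112 and 115 CPM (log2 fold change 3.37, SE 0.32). Nos2, inducible nitric oxide synthase, rose from 0, 0 and 0.0837 to 4.21, 1.22 and 0.953 CPM, Ptgs2 by 1.51 and Ptges by 1.83 on the log2 scale, Ptgs2 without passing once preOC replicates 4 to 6 were added (log2 fold change 1.05, adjusted p 0.0767). Il6ra and Il10 fell by 1.92 and 1.88.

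Of 25 tested genes of signalling between osteoclasts and osteoblasts, receptors such as Nrp1 and the plexins included, 8 rose and 6 fell (10 without replicate 1 of both groups), beside 31.7% and 32.9% of all genes, around a median of 0.078 that was negative in 5 of the alternatives, down to -0.317. Pdgfb, the platelet-derived growth factor of preosteoclasts that draws vessels to bone, rose from 52.2, 26.8 and 25.7 to 226, 244 and 248 CPM (log2 fold change 2.77, SE 0.28, adjusted p 0.000153). Sema4d, which restrains osteoblasts, rose from 321, 240.0 and 248 to 723, 711 and 799 CPM, and Sphk1, which makes sphingosine 1-phosphate, from 0.616, 2.42 and 2.51 to 5.56, 8.56 and 6.61 CPM. The groups did not overlap in the 3 genes, as in 71.5% of all genes. Efna2, an ephrin ligand, Sema7a, a membrane semaphorin, and Lif rose by 3.51, 2.28 and 1.80 on the log2 scale. Igf1 fell from 852, 695 and 751 to 126, 119 and 114 CPM and Nrp1, a semaphorin co-receptor, from 584, 581 and 604 to 102, 90.1 and 90.2 CPM, opposite to its relative Nrp2 above. Efnb2, an ephrin of osteoclasts, did not pass (log2 fold change 0.39, adjusted p 0.451), though it did with the replicate block (adjusted p 0.0457) and without replicate 1 of both groups (0.01).

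Nuclear genes of the respiratory chain and the TCA cycle rose in the main. Of 78 tested nuclear genes of the respiratory chain, 71 rose and 0 fell (median log2 fold change 0.826). Of 28 genes of the TCA cycle and pyruvate entry 25 rose and 2 fell (median 0.892). Over all genes 31.7% rose and 32.9% fell. Atp5b, a catalytic subunit of ATP synthase, rose from 469, 555 and 525 to 1281, 1398 and 1427 CPM (log2 fold change 1.41, SE 0.08, adjusted p 1.87e-05). Cycs, cytochrome c, rose from 15.7, 23.1 and 18.8 to 98.9, 92.5 and 91.7 CPM and Cyc1 of complex III from 65.2, 73.3 and 72.6 to 262, 305 and 310.2 CPM. Risers were found in each complex, with log2 fold changes of 0.95 for Ndufs1 of complex I, 0.84 for Sdhb of complex II, 1.02 for Uqcrc1 of complex III and 0.90 for Cox5a of complex IV. In the TCA cycle, Idh3a rose from 17.3, 25.5 and 21.1 to 118, 133 and 128 CPM, Mdh2 from 114, 156 and 148 to 475, 573 and 558 CPM and Cs, citrate synthase, from 212, 227 and 221 to 479, 525 and 511 CPM. Acod1, which diverts the cycle to itaconate, rose from 1.47, 2.67 and 3.05 to 27.0, 14.2 and 16.7 CPM. The falls were the cytosolic enzymes Idh1 and Me1. Ppargc1b, which encodes PGC1beta, the coactivator of mitochondrial biogenesis in osteoclasts, rose from 3.48, 4.42 and 3.97 to 46.2, 64.7 and 64.2 CPM (log2 fold change 3.88, SE 0.17). The 13 messages encoded in the mitochondrial genome themselves did not pass in the edgeR test (0 of 13, with 2 rising without replicate 1 of both groups), with a summed 10219, 4899.5 and 6435 CPM in BMMs and 5991, 4154 and 9002 CPM in preOCs. Their median, -0.128, was 0.312 without BMM 1 and 1.198 with preOC replicates 4 to 6, whose mitochondrial share was 2.364 to 3.639% of counts against 0.4807 to 1.019% in the 6 libraries.

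Of 29 glycolysis genes, 16 rose and 9 fell, beside 31.7% and 32.9% of all genes (median log2 fold change 0.474). Ldha, lactate dehydrogenase A, rose from 340.2, 503 and 484 to 1088, 939 and 931 CPM and the lactate carrier Slc16a1 from 5.54, 6.49 and 7.74 to 40.2, 30.8 and 35.6 CPM. Pkm and Slc2a1, the glucose carrier GLUT1, rose by 0.47 and 0.53. Hk2, hexokinase 2, fell by 0.37 and Pfkfb4, which sets the allosteric activator of phosphofructokinase, from 92.3, 68.9 and 68.3 to 22.8, 25.4 and 22.3 CPM. Of the kinases that block pyruvate entry, Pdk1 rose from 32.3, 28.7 and 28.1 to 83.5, 78.2 and 70.7 CPM and Pdk3 by 0.89 on the log2 scale, whereas Pdk2 and Pdk4 fell (log2 fold changes -0.88 and -1.55). The call of Pdk4 held only without BMM 1 among the 6 fits with a library left out. Pdk2 did not pass with preOC replicates 4 to 6 added (log2 fold change -0.40, adjusted p 0.165). In fatty acid oxidation 16 of 39 genes rose and 10 fell (median 0.106), beside 31.7% and 32.9% of all genes. Acsl1, which activates long-chain fatty acids, rose from 42.9, 39.2 and 40.6 to 246, 246 and 274 CPM, whereas Cpt1a, the gate of entry into mitochondria, fell from 235, 153 and 164 to 82.8, 87.1 and 88.2 CPM and Acox3 of peroxisomes by 1.71.

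Sterol genes fell on both sides of the balance. In cholesterol synthesis and uptake 22 of 30 fell and 2 rose, beside 32.9% and 31.7% of all genes (median log2 fold change -0.652). The 2 were Fasn and Acaca of fatty acid synthesis. Fasn, with a log2 fold change of 0.42, did not pass with preOC replicates 4 to 6 added (0.143, adjusted p 0.595). Hmgcs1 fell from 107, 107 and 111 to 54.8, 52.2 and 48.5 CPM, Cyp51 from 64.3, 64.4 and 68.0 to 31.1, 22.7 and 21.7 CPM and Insig1, a sterol sensor, from 139, 136 and 143 to 45.4, 40.2 and 39.2 CPM. In efflux and LXR targets 11 of 14 fell and 2 rose (median -1.132), against the same shares of all genes. The largest falls were in the apolipoprotein genes Apoc1 (log2 fold change -4.45, from a low 1.33 to 0.0605 CPM on average), Apoe and Apoc2 (38.2 to 4.46 CPM), and in Mylip, which degrades the LDL receptor (88.7 to 19.7 CPM). The cholesterol exporters parted, Abca1 going from 359, 254 and 306 to 95.3, 147 and 176 CPM and Abcg1 from 78.5, 43.2 and 49.6 to 185, 198 and 237 CPM. Nr1h3, which encodes LXRalpha, rose from 6.57, 6.51 and 6.06 to 40.8, 33.8 and 35.6 CPM.

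Growth genes rose without exception in the list chosen. All 40 tested genes of Myc and ribosome biogenesis were higher in preOCs (median log2 fold change 1.538), beside 31.7% of all genes. The same 40 of 40 were called without replicate 1 of both groups and with the replicate block. Myc rose from 14.1, 24.2 and 20.9 to 178, 175 and 178 CPM (log2 fold change 3.17, SE 0.19, adjusted p 1.83e-05). Nop56, a nucleolar protein of ribosomal RNA modification, rose from 25.3, 34.98 and 34.7 to 137, 118 and 119.9 CPM and Dkc1, of pseudouridylation, from 8.50, 12.7 and 11.7 to 70.6, 63.3 and 63.7 CPM. Ncl, nucleolin, rose from 341, 392 and 404 to 832, 763 and 751 CPM.

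Cell cycle genes rose as well. In S phase 35 of 36 genes rose (median log2 fold change 1.579) and in G2 and M phase 38 of 39 (median 0.947), with 0 falling in either. Over all genes 31.7% rose and 32.9% fell. Mcm5 of the replicative helicase rose from 33.8, 62.6 and 48.0 to 219, 168 and 176 CPM, Uhrf1, which maintains DNA methylation, from 25.05, 54.0 and 40.1 to 231, 179 and 181 CPM and Ccne1, cyclin E1, from 4.57, 9.79 and 9.16 to 38.1, 27.8 and 28.3 CPM. BMM 1 was the lowest and preOC 1 the highest library in all 3. Top2a rose from 119.8, 172 and 139 to 391, 343 and 327 CPM, Bub1 of the spindle checkpoint from 13.4, 18.3 and 12.99 to 67.6, 50.3 and 51.8 CPM, and Mki67, the proliferation marker, by less, from 183, 199 and 161 to 293, 282 and 280.5 CPM (log2 fold change 0.65, and 0.67 with an adjusted p of 0.0723 with all 11 libraries of replicates 1 to 3 in 1 fit). Summed over the S phase list the level was 765, 1195 and 996 CPM in BMMs and 3156, 2551 and 2549 CPM in preOCs. Without replicate 1 of both groups the medians were 1.302 and 0.843 and the counts stayed at 35 and 38. Among cyclins D and inhibitors, Ccnd1 rose from 83.9, 203 and 142 to 455, 292 and 285 CPM and Cdk6 from 20.04, 16.4 and 15.5 to 62.8, 55.0 and 57.2 CPM, while Ccnd3 fell by 0.57, Cdkn1a, which encodes p21, by 0.75 and Btg2, an antiproliferative gene, from 37.7, 35.8 and 40.3 to 9.30, 10.9 and 7.996 CPM. With preOC replicates 4 to 6 added Ccnd1 no longer passed (log2 fold change 0.80 against 1.27, adjusted p 0.149). Of the 17 tested, 6 rose and 6 fell, beside 31.7% and 32.9% of all genes.

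**Figure D4:**
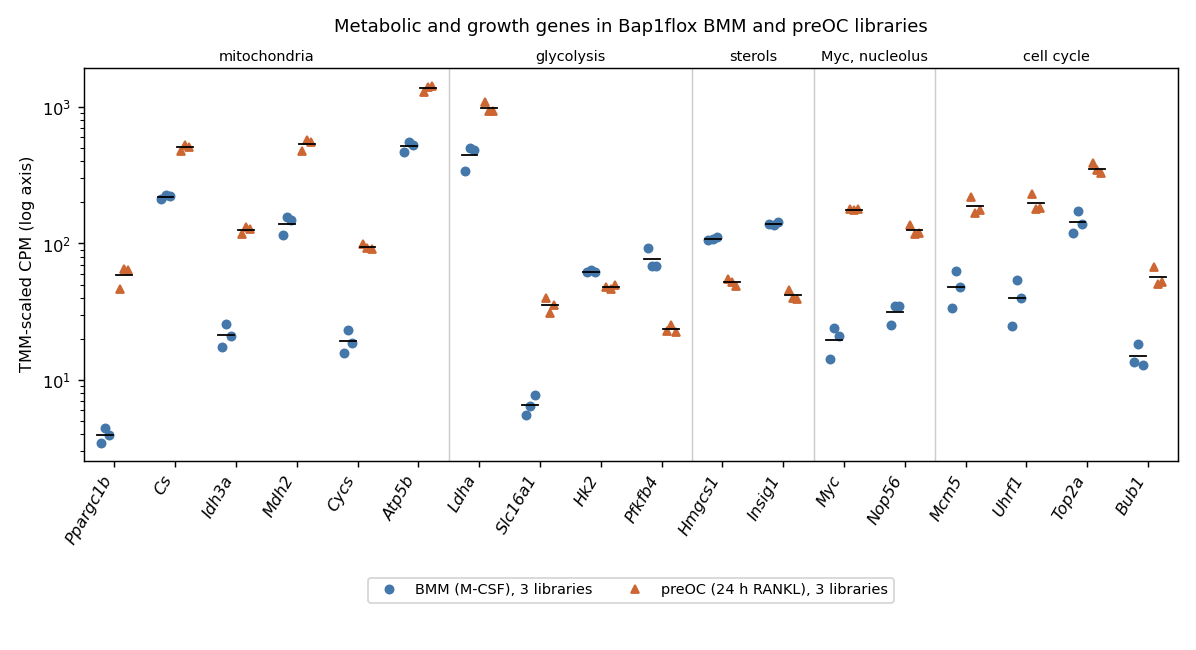
TMM-scaled CPM (log axis) of 18 metabolic and growth genes in each of the 3 Bap1flox BMM libraries (circles) and 3 preOC libraries (triangles), with a black bar at each mean. Hk2, Pfkfb4, Hmgcs1 and Insig1 are lower in preOCs and the other 14 are higher.

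The lists of the BCL2 family, iron handling and the NRF2 response each held more genes that fell than rose, where 32.9% of all genes fell and 31.7% rose. In the BCL2 family, which joins survival and death genes, 9 of 18 fell and 3 rose (6 without replicate 1 of both groups). Of the survival genes, Mcl1 rose (log2 fold change 0.27, adjusted p 0.0431), a call lost with the replicate block (adjusted p 0.0619) and held only without BMM 1 among the 6 fits with a library left out. The survival genes Bcl2 and Bcl2l1 (Bcl-xL) fell from 9.36, 14.99 and 12.6 to 7.68, 6.30 and 6.67 CPM and from 74.3, 128 and 113 to 67.0, 49.9 and 44.2 CPM, and so did the death gene Bbc3 (PUMA), from 75.9, 75.3 and 78.7 to 29.0, 32.1 and 31.6 CPM, while Pmaip1 (NOXA) rose from 11.7, 9.48 and 9.62 to 25.03, 26.6 and 25.7 CPM. Other death genes also went both ways, with log2 fold changes of -0.30 for Bax, -0.36 for Bid, -0.41 for Bnip3, -0.52 for Bnip3l and 0.53 for Bak1, which all passed, Bid in 2 of the 6 fits with a library left out. In iron handling 12 of 25 fell and 6 rose. Slc40a1, ferroportin, the only known iron exporter, fell from 597, 479 and 604 to 31.3, 36.9 and 43.6 CPM (log2 fold change -3.91, SE 0.16, adjusted p 5.66e-06). Hmox1, haem oxygenase 1, fell from 929, 1369 and 1309 to 359, 316 and 312 CPM and the ferritin genes Fth1 and Ftl1 by 0.98 and 0.92. Tfrc, the transferrin receptor, did not pass (log2 fold change 0.17, adjusted p 0.243), but did with preOC replicates 4 to 6 added (0.0435) and without replicate 1 of both groups (0.0138). Of 30 NRF2 and glutathione genes, 19 fell and 5 rose (9 without replicate 1 of both groups). Cat, catalase, fell from 2469, 1809.9 and 1824 to 349, 308 and 287 CPM, Gstm1 from 546, 431 and 487 to 116, 101 and 99.7 CPM, and Gclm, the modifier of glutathione synthesis, from 616, 455 and 459.6 to 164, 132 and 127 CPM. Slc7a11, the cystine carrier that feeds glutathione, rose from 10.4, 5.23 and 7.15 to 12.9, 13.8 and 16.8 CPM (log2 fold change 0.93, SE 0.25). Of 31 genes of the ATF4 response and serine synthesis, 16 rose and 7 fell (11 without replicate 1 of both groups), beside 31.7% and 32.9% of all genes. The amino acid carriers Slc1a5 and Slc7a1 rose from 35.3, 46.4 and 48.1 to 219, 247 and 244 CPM and from 10.9, 19.2 and 19.4 to 103, 86.7 and 90.7 CPM, and Shmt1 and Mthfd2 of one-carbon metabolism by 2.13 and 1.71.

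**Figure D5:**
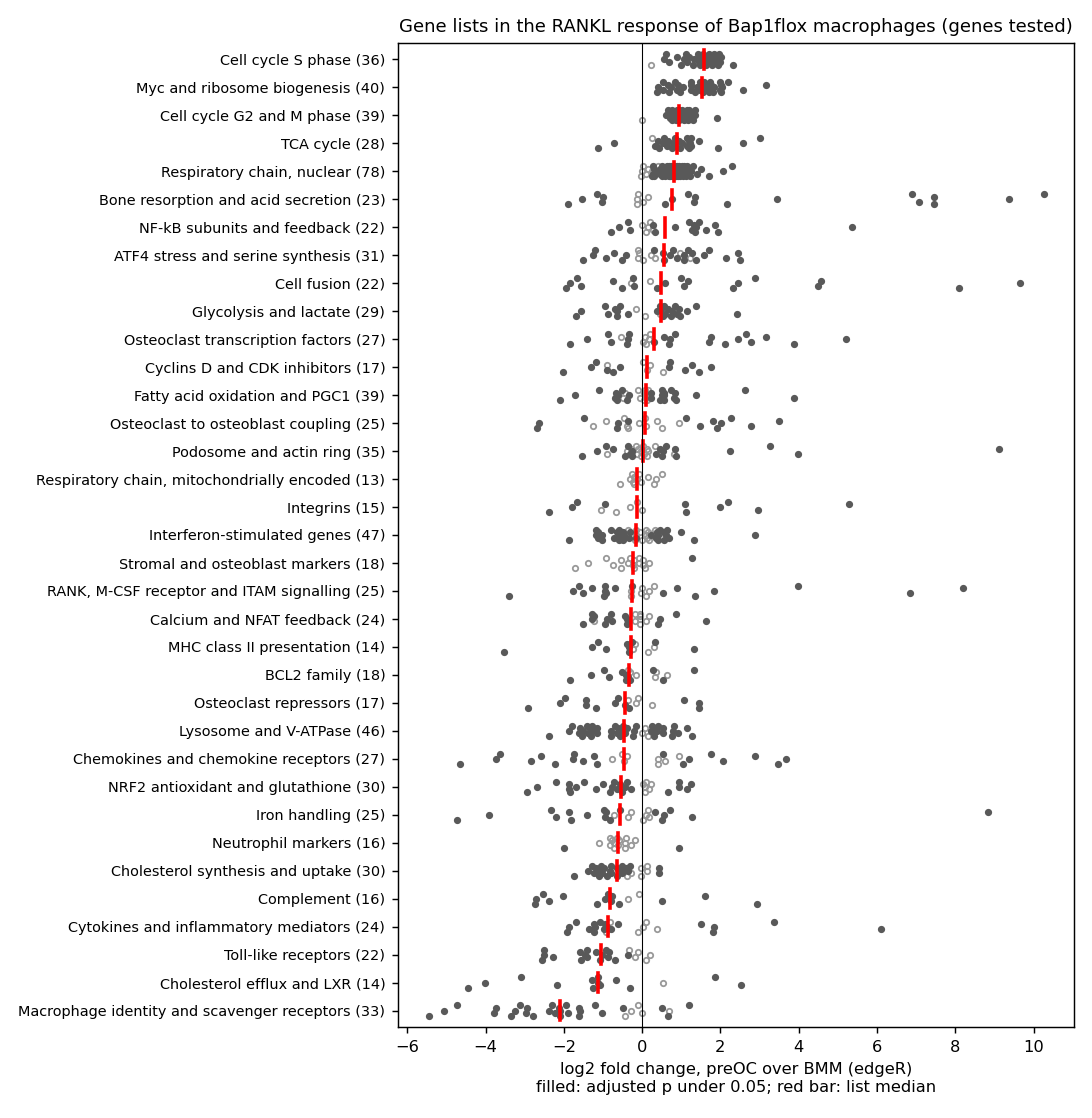
Log2 fold change (preOC over BMM, edgeR) of every tested gene in the 35 lists with at least 13 tested genes, ordered by list median (red bars). Filled points passed an adjusted p of 0.05, and the number of tested genes follows each name. Medians run from -2.11 for macrophage identity to 1.579 for S phase.

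Bap1-deleted macrophages, which carry the same floxed gene with Cre in the lysozyme M gene, gave a response to set beside this. They share no library with the control comparison. Bap1, counted over the whole gene, was at 74.8 to 87.7 CPM in these 5 libraries and at 82.1 to 97.1 CPM in the 6 controls, a count that is no check of a deletion of part of the gene. Of the 5696 genes changed at least 1.5-fold in Bap1flox cells, 5511 (96.8%) had a fold change of the same sign in the deleted cells (3 BMM against 2 OC libraries). In these 5 libraries 2516 genes (18.8%) passed (1634 under voom), and the count moved to 1124, 77 and 164 without BMM 1, 2 or 3 and to 761 without OC 2. The difference between the genotypes' responses itself passed for 0 of 13412 genes in edgeR and in voom, with 1701 genes at an unadjusted p under 0.05 and a smallest adjusted p of 0.0996. It passed for 3 genes without the deleted OC 1 and for 116 without OC 2. Acp5, Ctsk and Nfatc1 had log2 fold changes of 7.90, 7.07 and 2.38 in the deleted cells, against 7.46, 7.45 and 2.11 in controls. Lyz2, which carries Cre, was at 6715 and 8722 CPM in the OC and BMM libraries labelled Bap1LysM 1 and at 13.62 to 35.36 CPM in the other 3, and the OC library also had the lowest Acp5 (818.1 CPM) of all preOC libraries. These 2 libraries thus differed in Lyz2 from the others of their label, and whether the label holds for them was not settled. Without them 2 BMM libraries and a single OC library remained in the deleted cells, where 5451 (95.7%) of the 5696 genes had the same sign. The G2 and M phase list had a median of 0.029 in the deleted cells and the S phase list 0.505. Without these 2 libraries the medians were -0.048 and 0.373, on a single OC library. The deleted BMMs spread widely in Mki67, at 145.5, 401.3 and 217.3 CPM in BMM 1 to 3. A difference between the genotypes in these lists was not tested. Of single genes, Mki67 had -0.16 and Cx3cr1 -0.18 in all 5 libraries of deleted cells, against 0.65 and 1.20 in controls, differences that did not pass (adjusted p 0.462 and 0.336).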

How the data were processed

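RNA was measured by poly-A RNA-seq, and 6 of the 17 libraries, with 2 groups of 3, carry the comparison. Per the labels and the study's methods, the authors aligned reads with STAR 2.5.1a to GRCm38 and counted them per gene with featureCounts 1.4.6-p5. The strand setting was not given in the sources used here, so a gene and its antisense partner may share reads, as may near-identical copies (Ctla2a and Ctla2b, ferritin and ribosomal protein pseudogenes, the class II genes). The deposited count values are raw whole numbers. The CPM and RPKM values deposited by the authors equalled the count divided by the library total, and by gene length, in 17 of 17 libraries, within a tolerance of 0.001. Of 41388 gene IDs, 40340 matched a GENCODE M21 symbol.

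Ribosomal RNA genes (355) and genes without a CPM above 1 in at least 2 of the 6 libraries were left out. The 13412 others were fitted in edgeR 4.0.16 (R 4.3.3) with TMM factors and the quasi-likelihood test, and p-values were adjusted by Benjamini-Hochberg over all of them, with a threshold of 0.05. CPM values printed per library are TMM-scaled, except Lyz2, Acp5, Bap1 and Mki67 across genotypes, which are as deposited. Each per-library series of values runs from replicate 1 to 3. Fold changes are edgeR's. Promoters were those of RefSeq.

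Named genes were the 15 largest changes in each direction (protein-coding, not overlapping, at least 5 CPM), the 10 largest shifts in CPM, core members of each list and up to 4 further members. A few other list members were added after their values were seen. The members and lists were chosen with earlier results of these data known. Alternatives were limma 3.58.1 voomWithQualityWeights, DESeq2 1.42.0, other size factors, other filters, each library left out, preOC replicates 4 to 6 added, all 11 libraries in 1 fit, a replicate block and, added after seeing the data, both libraries numbered 1 left out. As a check of pairing, the departures of BMM and preOC libraries with equal numbers from the mean of their group were correlated. They gave r = 0.374, 0.239 and 0.315 over 13412 genes, which are not independent. Pairs of unequal number ran from -0.398 to 0.252, and preOC 2 correlated better with BMM 3 (0.252) than with BMM 2. Whether equal numbers mark paired samples was not settled, and the main test used no replicate block. PreOC replicates 4 to 6 were left out of the main comparison because their deposited tables are named in another form than those of replicates 1 to 3 and of the BMMs.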

Additional observations from a re-analysis of the deposited data

How the results depend on the processing

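The count of genes called in the Bap1flox response stayed within 1.5 times the main 8663 in every alternative run, from 7614 to 9197 with 1 library left out and at 10167 under voom, 8736 under DESeq2, 7879 with all 11 libraries of replicates 1 to 3 in 1 fit and 9968 without replicate 1 of both groups. With the replicate block 8514 genes were called, and this block changed no call of a gene or list described above other than those given beside it. Alternatives were run for the 271 genes described. Those that changed direction were Ostm1, Bap1, Btk and Syk, none of which passed in the main comparison. With preOC replicates 4 to 6 added the log2 fold change was 0.058 for Ostm1, 0.206 for Btk and 0.139 for Syk. It was 0.020 for Bap1, 0.050 for Btk and 0.028 for Syk with upper-quartile factors, 0.013, 0.042 and 0.015 without a filter on low counts, and 0.042, 0.052 and 0.228 without replicate 1 of both groups, where Syk passed. For Btk it was 0.016 with DESeq2 and with RLE factors and 0.008 with all 11 libraries, and for Syk 0.127 under voom. With 1 library left out it ran from -0.067 to 0.020 for Bap1, from -0.022 to 0.068 for Btk and from -0.080 to 0.158 for Syk.

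Calls were lost without a filter on low counts for 6 genes (Bcl6, H2-Aa, H2-Eb1, Atp6ap1, Atp6v0d1 and Grb2) and with RLE or upper-quartile factors for Atp6ap1. With all 11 libraries 16 lost it, Bcl6, Cd4, H2-Aa, H2-Eb1, Ifit2, Iigp1, Isg15, Lyz2, Mki67, Msr1, Atp6ap1, Atp6v0d1, Bid, Elmo1, Mcl1 and Tlr3. With preOC replicates 4 to 6 added 11 did, Bcl6, Ccnd1, Isg15, Ptgs2, Atp6ap1, Atp6v0d1, Bnip3, Bnip3l, Fasn, Grb2 and Pdk2. With 1 library left out, Bcl6, H2-Aa, H2-Eb1, Msr1, Atp6ap1, Atp6v0d1, Bid, Clec4a2, Mcl1, Pdk4 and Pira2 lost it in at least 1 fit.

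In the deleted cells voom called 1634 genes, 646 of them lower by at least 1.5-fold, and without both libraries numbered 1 the counts were 4322 in all, 2095 higher and 2146 lower by at least 1.5-fold. Leaving out 1 library gave 77 to 3557 genes called, 56 to 1780 higher and 21 to 1695 lower, where 2 against 2 or 3 against 1 libraries remained and the lone sample was assumed to vary like the others. The difference between the genotypes was called for 0 to 116 genes. The cause of these shifts was not tested. Without both libraries numbered 1, a single OC library stood against 2 BMM libraries. The spread among OC libraries cannot be measured there, nor where 3 BMM libraries stood against 1. Counts from those fits therefore do not show how many genes responded. Counts were simulated for the Bap1flox comparison over 13412 genes, of which 200 were changed. The test returned 42% of genes changed 1.5-fold and 96% of those changed 3-fold. In the data 64.6% of genes passed, a far larger share, so these rates do not give the recovery in the data.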

Other observations

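Beyond the lists, families taken from gene symbols after the data were seen were tallied in the same fit, where 31.7% of all genes rose and 32.9% fell. Genes of protein making and folding rose in number. Of 82 ribosomal protein genes of the cytosol 68 rose and 0 fell, with a median log2 fold change of 0.381, and of 76 mitochondrial ribosomal protein genes 70 rose and 1 (Mrpl24) fell, with a median of 0.724. All 7 tested genes of the chaperonin CCT rose, as did 15 of 17 cytosolic aminoacyl-tRNA synthetase genes, 33 of 38 proteasome subunit genes and 17 of 23 genes of mitochondrial protein import. In the deleted cells the medians of these families were 0.168, 0.531, 0.65, 0.615, 0.275 and 0.566.

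Other families fell. All 5 genes of the Fc gamma receptor symbols, Fcgrt of IgG recycling included, were lower in preOCs (median -2.787), and so were all 8 Ms4a genes (median -2.06). Of 13 cathepsin genes 9 fell and Ctsk was the 1 that rose. Solute carrier genes divided, with 71 of 212 rising and 86 falling. Slc16a9, of the monocarboxylate carrier family, fell by 4.04 on the log2 scale, and Slc6a4, the serotonin carrier, was among the 24 genes that went from under 0.5 CPM to over 5 CPM. By annotated class, 59 of 150 long intergenic RNA genes fell and 21 rose, and 63 of 129 antisense RNA genes fell and 20 rose. Of 838 processed pseudogenes 354 rose and 58 fell, which share sequence with their parent genes.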
